A study of Homo sapiens with 52 samples.

Results

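Expression of 10 genes was followed through 52 RNA-seq samples of fusion-positive rhabdomyosarcoma (FP-RMS) cells, a childhood muscle-lineage cancer in these cells carrying the PAX3-FOXO1 fusion. The genes were the 4 inhibitor of DNA binding genes ID1, ID2, ID3 and ID4, the inhibitory SMAD genes SMAD6 and SMAD7, the pseudoreceptor gene BAMBI, the secreted BMP antagonist genes NOG and GREM1, and the ligand gene BMP4. They were chosen by name, out of 27043 genes in each table, and all 10 passed the filter on low values that left 16359 genes for testing.

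The screen held 20 compounds at a high and a low dose, 1 sample per dose, with 4 solvent (DMSO) libraries, a pair at 0.2% and a pair at 0.1%, and exposure lasted 6 h. Most compounds were given at 10 and 1 µM, and LAQ824, Cpd50 and GSKJ4 at 5 and 0.5 µM. By the labelled target, the acetylation axis comprised 7 compounds: LAQ824 (HDAC), WT161 (HDAC6), Merck60 (HDAC1/2), MC1568 (HDAC4/5), OJI-1 (HDAC8), bromosporin (bromodomains) and SGC-CBP30 (the CREBBP/EP300 bromodomain). Histone deacetylases (HDACs) remove acetyl groups from histones, and bromodomains bind them. The methylation axis comprised 11 compounds: Cpd50 (pan Jumonji), GSKJ4 (JMJD3/UTX), GSKLSD1, LSD-519 and LSD-690 (LSD1), EZ-005 (EZH2), UNC1999 (EZH1), UNC0638 (KMT1C), SGC0946 (DOT1L), PFI-2 (SETD7) and UNC-1215 (L3MBTL3). PFI-3 (SMARCA4) and trametinib (MEK1/2) belonged to neither. A separate pair of samples compared N1302 (HDAC) at 1 µM with 0.1% DMSO for 6 h, and a time course compared entinostat (HDAC1/2/3) at 1 µM with 0.1% DMSO at 1, 6 and 24 h, with 1 sample each. Every sample carried the cell line label RH4, whereas screen samples are titled RH41, so levels were not tested across experiments. The 2 doses of a compound, 10-fold apart, served as its replicates, and nothing in the labels says that the samples came from separate cultures. The p-values of compounds against DMSO therefore rest on the spread between doses, pooled over all compounds and DMSO. A gene has the same standard error with every compound. This spread includes the effect of dose, may otherwise be technical, and is not that of repeat cultures. Libraries were sequenced to between 5737939 and 41415071 reads, as recovered from the values. The 28 samples of flow cell C5JW5ACXX, which held 14 compounds and no DMSO, had a median of 10571890 reads, against 19002889 and 23569931 on the flow cells that held DMSO.

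BMPs and TGF-beta are secreted ligands that signal through paired serine/threonine kinase receptors to receptor-activated SMAD proteins, which enter the nucleus with SMAD4. ID genes are classical targets of the BMP branch. ID proteins have a helix-loop-helix but no DNA-binding region, and they take E proteins (TCF3, TCF4, TCF12) away from myogenic bHLH factors such as MYOD1 and MYOG. SMAD6, SMAD7 and BAMBI are induced by the pathway and dampen it inside or at the surface of the cell, while NOG and GREM1 proteins capture BMP ligands outside it.

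The promoters of ID1, ID2, ID3 and BAMBI are shown first, because these 4 are all textbook BMP targets, and ID2 and BAMBI were called up, ID3 down and ID1 with no compound. RefSeq promoter entries (GRCh38.p14) matched 9 of the 10 genes, all but NOG. The 250 bases before the annotated start are given 5′ to 3′ on the strand of the gene: ID1 at chr20:31605039-31605288 on the plus strand, ID2 at chr2:8681806-8682055 on the plus strand, ID3 at chr1:23559502-23559751 on the minus strand, BAMBI at chr10:28677271-28677520 on the plus strand. Capitals mark matches, on either strand, to GGCGCC (the GC-rich element bound by BMP SMADs), CAGAC (the SMAD-binding box), CCAAT and TATAAA.

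ID1: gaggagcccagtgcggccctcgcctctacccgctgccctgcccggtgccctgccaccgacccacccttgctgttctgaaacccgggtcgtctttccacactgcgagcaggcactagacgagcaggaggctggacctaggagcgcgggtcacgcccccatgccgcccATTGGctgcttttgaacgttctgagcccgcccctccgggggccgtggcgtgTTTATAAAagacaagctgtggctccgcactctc
ID2: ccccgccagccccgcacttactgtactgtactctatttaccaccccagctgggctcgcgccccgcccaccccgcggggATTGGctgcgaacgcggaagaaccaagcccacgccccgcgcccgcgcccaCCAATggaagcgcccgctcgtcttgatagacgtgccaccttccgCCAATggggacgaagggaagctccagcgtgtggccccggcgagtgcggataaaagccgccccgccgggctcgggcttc
ID3: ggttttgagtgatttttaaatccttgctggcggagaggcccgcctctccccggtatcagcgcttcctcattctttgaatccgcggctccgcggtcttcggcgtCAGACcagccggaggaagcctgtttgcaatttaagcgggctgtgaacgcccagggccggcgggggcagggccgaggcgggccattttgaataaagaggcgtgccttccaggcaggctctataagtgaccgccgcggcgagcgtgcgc
BAMBI: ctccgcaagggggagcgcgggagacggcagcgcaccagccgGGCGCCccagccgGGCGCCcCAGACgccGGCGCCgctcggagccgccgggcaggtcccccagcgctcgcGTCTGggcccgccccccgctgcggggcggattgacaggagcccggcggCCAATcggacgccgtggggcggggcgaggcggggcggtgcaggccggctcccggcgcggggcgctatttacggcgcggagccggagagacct

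The BAMBI window held GGCGCC at 3 places, CAGAC at 2 and CCAAT at 1. It was 81.2% G or C, beside 66.0% for ID1, 69.2% for ID2 and 62.0% for ID3. The median over all 35116 promoter windows was 58.0%. GGCGCC was present in 16.38% of all windows, and of these 4 genes the BAMBI window alone contained it. Among all 9 genes with an entry 3 had it, since 1 of the 2 GREM1 windows held 2 matches and 1 of the 3 BMP4 windows held 1. CAGAC, found in 38.0% of all windows, had 1 match before ID3 and none before ID1 or ID2. CCAAT, found in 32.01% of all windows, had 3 matches before ID2, 1 before ID1 and none before ID3. TATAAA, found in 10.72% of all windows, was present among these 4 genes before ID1, where 2 matches on opposite strands overlapped, and among the 9 genes also before ID4 and in 1 of the 3 SMAD7 windows. A match here is a match of letters and was not tested as a binding site.

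In DMSO-treated cells the ID genes differed widely in level. TPM values are scaled for gene length, so levels can be set side by side. ID3 was the most abundant, at 500.4 to 552.0 TPM in the 4 screen DMSO libraries, followed by GREM1 at 196.2 to 203.4 TPM and ID1 at 124.3 to 129.2 TPM. These ranges did not overlap. NOG (17.8 to 19.6 TPM), BMP4 (15.7 to 17.7 TPM) and ID2 (15.1 to 19.0 TPM) lay close together, and ID2 overlapped both of the others. BAMBI had 10.1 to 12.4 TPM, SMAD6 7.81 to 8.79 TPM and SMAD7 4.39 to 5.74 TPM. ID4 was near the lower end of detection, at 0.667 to 0.885 TPM. Of the rhabdomyosarcoma markers, MYOD1 (248.8 to 648.3 TPM) and MYOG (391.0 to 633.0 TPM) were high in all 8 DMSO samples. So were DES (243.0 to 514.2 TPM) and FGFR4 (389.4 to 980.9 TPM). The others were lower, with ALK at 7.37 to 38.2 TPM and TFAP2B at 10.8 to 51.2 TPM. PAX3 had 12.4 to 43.9 TPM and NOS1 1.304 to 27.3 TPM. Leukocyte, endothelial and epithelial markers (PTPRC, PECAM1, EPCAM) stayed at or below 0.268 TPM. The fibroblast-associated COL1A1 ranged from 6.17 to 102.0 TPM in these samples, and PDGFRB from 7.32 to 17.0 TPM. DMSO levels differed between experiments. For GREM1 the mean of 199.0 TPM in the screen DMSO compared with 57.0 TPM in the N1302 DMSO sample and 10.9 to 13.8 TPM in the time-course DMSO samples. SMAD6 was also lower there, at 1.59 TPM and at 2.70 to 3.04 TPM, and BAMBI was higher, at 44.1 TPM and at 14.2 to 16.5 TPM. Cell line name, experiment and sequencing run cannot be told apart in these differences.

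**Figure D1:**
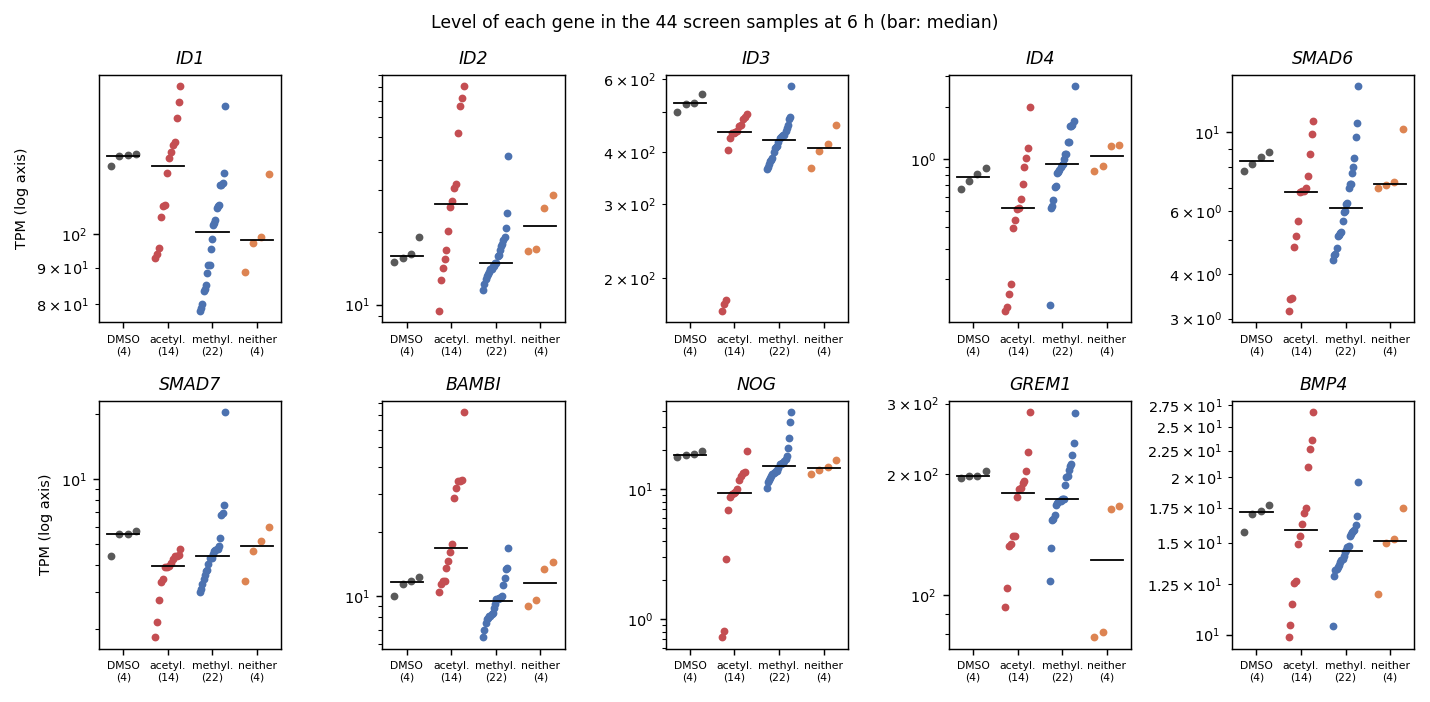
TPM on a log axis for each of the 10 genes in the 44 screen samples, 1 point per sample, split into DMSO, acetylation-axis, methylation-axis and other compounds, with a bar at the median. The lowest ID3 and NOG points and the highest ID2 and BAMBI points all come from acetylation-axis compounds.

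Each compound was then compared with DMSO to ask which of the 10 genes it moved. Differences are in log2(TPM + 1), with their standard error (SE) from limma, and a call needed both an adjusted p below 0.05 and a change of 1 or more, up or down, on the log2 scale. In bulk RNA, fewer cells that express a gene and less RNA per cell cannot be told apart. Of 200 gene and compound pairs, 12 were called: 11 of 70 pairs in the acetylation axis, 0 of 110 in the methylation axis and 1 of 20 for PFI-3 and trametinib. Over all genes tested, acetylation-axis compounds called between 0.0367% and 25.3% each. Methylation-axis compounds called only 0.0306% to 3.31% of all genes, and PFI-3 and trametinib 0.0306% and 1.16%. The acetylation-axis calls came from 3 of the 7 compounds, in which ID2 and BAMBI went up and NOG, ID3, SMAD6 and SMAD7 went down.

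LAQ824 moved the largest number. It called 6 of the 10 genes, 2 up and 4 down, against a background of 25.3% of all 16359 genes called. WT161 called 2 of the 10 (ID2 up, NOG down) against 10.3% of all genes, and bromosporin called 3 of the 10 (ID2 and BAMBI up, NOG down) against 13.0%. Trametinib called 1 of the 10, GREM1, against 1.16% of all genes. The median log2 fold change over the 10 genes was -0.43 for LAQ824, -0.18 for WT161 and -0.32 for bromosporin, beside 0.05, 0.02 and -0.13 over all genes tested. The remaining 16 compounds called none of the 10. Among them the acetylation-axis compounds called 6.73% (MC1568), 1.25% (SGC-CBP30), 0.0734% (OJI-1) and 0.0367% (Merck60) of all genes. For the methylation axis the shares were 3.31% for UNC0638, 2.13% for Cpd50, 0.941% for GSKLSD1, 0.532% for LSD-690, 0.306% for LSD-519 and 0.141% for PFI-2. They were 0.0917% for SGC0946, 0.0489% for UNC1999, 0.0367% for UNC-1215 and 0.0306% for EZ-005 and GSKJ4. PFI-3 also called 0.0306% of all genes.

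**Figure D2:**
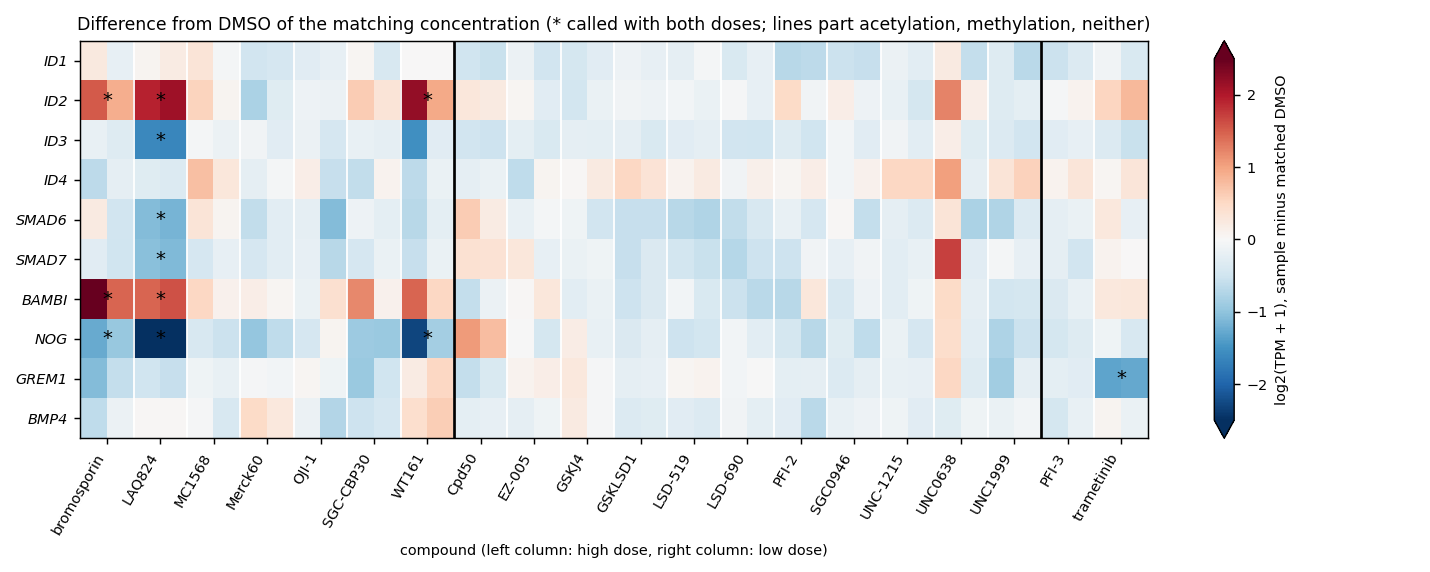
Difference in log2(TPM + 1) between each treated sample and the mean of the 2 DMSO libraries of matching concentration, for 10 genes (rows) and 20 compounds (pairs of columns, high dose left and low dose right), with colours saturating beyond 2.5 in size. Asterisks mark the 12 called pairs, 11 of them to the left of the first black line, in the acetylation axis.

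ID2, whose product binds E proteins like the other ID proteins, was the ID gene that went up. Against 15.1, 15.6, 16.2 and 19.0 TPM in the DMSO libraries, LAQ824 gave 67.2 TPM at the high and 72.3 TPM at the low dose. WT161 gave 81.3 and 31.8 TPM, and bromosporin 51.5 and 30.7 TPM, at high and low dose. All 6 samples lay above every DMSO library, and for the last pair of compounds the high dose lay above the low one. The log2 fold change was 2.02 ± 0.34 (SE; adjusted p = 2.81e-05) for LAQ824, 1.57 ± 0.34 (adjusted p = 0.001147) for WT161 and 1.22 ± 0.34 (adjusted p = 0.007374) for bromosporin. With only the low-dose sample of each, WT161 (0.91, adjusted p = 0.09849) and bromosporin (0.86, adjusted p = 0.2193) no longer passed. Merck60 had the lowest ID2 of the 40 treated screen samples, 9.41 TPM at the high dose, and its fitted difference of -0.55 did not pass (adjusted p = 0.8374).

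BAMBI encodes a receptor-like membrane protein without a kinase domain that blocks TGF-beta and BMP receptor complexes. Its 4 DMSO libraries held 10.1 to 12.4 TPM, and LAQ824 gave 34.6 and 34.8 TPM at high and low dose. Bromosporin gave 72.5 and 31.9 TPM, the high dose being the highest BAMBI value of the screen. Both compounds passed, with log2 fold changes of 1.52 ± 0.37 (adjusted p = 0.001208) and 1.99 ± 0.37 (adjusted p = 0.0003428). WT161 gave 34.5 TPM at the high and 16.1 TPM at the low dose, a log2 fold change of 0.99 that passed the p threshold (adjusted p = 0.04183) and fell just short in size. SGC-CBP30 gave 28.8 TPM at its high dose and 11.9 TPM, within the DMSO range, at its low dose. None of the 14 acetylation-axis samples lay below all DMSO libraries for BAMBI, and 10 lay above all of them, whereas 17 of 22 methylation-axis samples lay below.

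NOG encodes Noggin, which binds BMP ligands and keeps them from their receptors. It had 17.8 to 19.6 TPM in DMSO and fell to 0.807 and 0.728 TPM with LAQ824, from 16 and 17 recovered reads. The log2 fold change of -3.47 ± 0.30 (adjusted p = 7.948e-09) was the largest in size among the 200 pairs. WT161 gave 2.93 TPM at the high and 10.1 TPM at the low dose (log2 fold change -1.57 ± 0.30, adjusted p = 0.0003245). Bromosporin gave 6.96 and 9.35 TPM (-1.11 ± 0.30, adjusted p = 0.005553). All 6 samples lay below every DMSO library. SGC-CBP30, at 9.19 and 9.51 TPM, had a log2 fold change of -0.92 that did not pass (adjusted p = 0.08637). On the low-dose sample alone NOG was no longer called for WT161 (-0.82, adjusted p = 0.03594) or bromosporin (-0.92, adjusted p = 0.1327). In the opposite direction, Cpd50 gave 39.3 and 33.1 TPM, the highest NOG values of the series, with a log2 fold change of 0.92 that did not pass (adjusted p = 0.06755).

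ID3, the most abundant ID gene, fell with LAQ824 while ID2 went up. Both doses of LAQ824 stood far below the DMSO range of 500.4 to 552.0 TPM, at 166.6 and 172.8 TPM (log2 fold change -1.62 ± 0.21, adjusted p = 1.094e-06). WT161 at the high dose gave a like value, 176.6 TPM, and at the low dose 445.0 TPM. Its log2 fold change of -0.90 ± 0.21 passed the p threshold (adjusted p = 0.002185) and stayed below 1 in size. With the high-dose sample alone it was -1.57. ID1 moved little in the screen: LAQ824 gave 134.5 and 144.8 TPM against 124.3 to 129.2 TPM in DMSO, and fitted differences over the 20 compounds ran from -0.68 to 0.13, none of which passed. ID4 stayed between 0.131 and 2.65 TPM in the 40 treated samples, and its differences ran from -0.44 to 0.52, none of which passed.

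**Figure D3:**
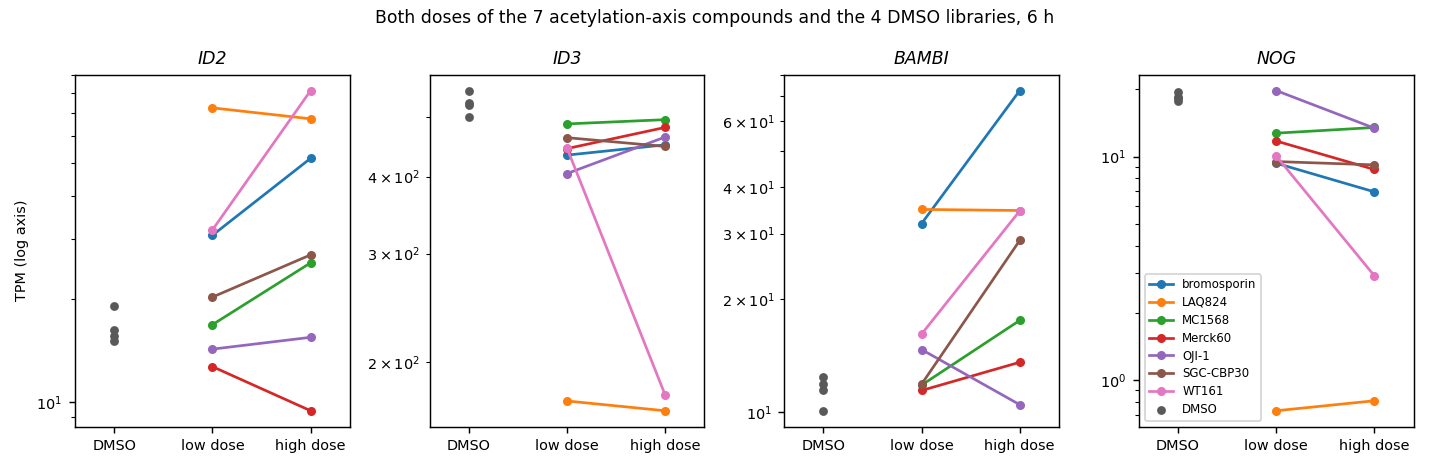
TPM on a log axis of ID2, ID3, BAMBI and NOG in the 4 DMSO libraries and at the low and high dose of the 7 acetylation-axis compounds, with a line joining the 2 doses of a compound. LAQ824 lies outside the DMSO range at both doses in all 4 panels, WT161 does so most at the high dose, and ID3 under bromosporin stays at 433.5 and 450.5 TPM.

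The inhibitory SMAD genes fell with LAQ824. SMAD6 encodes an inhibitor with a preference for BMP receptors, and it dropped from 7.81 to 8.79 TPM in DMSO to 3.43 and 3.15 TPM (log2 fold change -1.12 ± 0.31, adjusted p = 0.003524). SMAD7 encodes the inhibitor of both branches, and it dropped from 4.39 to 5.74 TPM to 2.16 and 1.84 TPM (-1.07 ± 0.36, adjusted p = 0.01414). Neither set of values overlapped with DMSO. The SMAD7 call depended on single libraries: without the second 0.1% DMSO library the log2 fold change was -0.99 (adjusted p = 0.02367), and without the low-dose sample -0.996 (adjusted p = 0.07785). No other acetylation-axis compound passed for either gene. UNC0638 at the high dose had the highest SMAD7 value of the series, 20.5 TPM from 154 recovered reads, against 4.01 TPM at the low dose. That high-dose sample also held more ID2 (41.5 against 17.9 TPM), ID4 (2.65 against 0.515 TPM) and GREM1 (283.6 against 158.9 TPM) than the low-dose one, and with both doses none of these passed.

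GREM1, the other secreted antagonist, had its own pattern. Trametinib brought it from 196.2 to 203.4 TPM in DMSO down to 78.7 and 81.2 TPM, the only call outside the acetylation axis (log2 fold change -1.30 ± 0.20, adjusted p = 0.0002682). Bromosporin gave 93.5 and 132.4 TPM (-0.83, adjusted p = 0.002582), SGC-CBP30 104.4 and 140.2 TPM (-0.71, adjusted p = 0.04595) and LAQ824 140.9 and 134.5 TPM (-0.53, adjusted p = 0.02888), all below 1 in size. WT161 went the other way, with 227.6 and 285.7 TPM, both above every DMSO library, and did not pass (0.36, adjusted p = 0.1818). BMP4, the ligand, stayed at the DMSO level with LAQ824, which gave 17.1 and 17.4 TPM against 15.7 to 17.7 TPM in DMSO. WT161 gave 22.6 and 26.7 TPM, a log2 fold change of 0.51 ± 0.18 that passed the p threshold (adjusted p = 0.03064) but stayed below 1 in size and was not called.

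The flow cell that carried most treated samples had no DMSO library. Of its 28 samples, 27 lay below all 4 DMSO libraries for ID3, 25 for NOG, 23 for ID1 and 23 for SMAD6. Treated samples lay on both sides of DMSO there for ID2 (10 below and 11 above all 4 libraries), BAMBI (11 and 12) and ID4 (9 and 13). Of the 12 treated screen samples on other flow cells, 12 were below all 4 DMSO libraries for ID3, 9 for NOG, 9 for ID1 and 8 for SMAD6. These 12 included both LAQ824 samples, and 4 of them came from another flow cell without DMSO. Flow cell, depth and any other difference between runs cannot be told apart. With the other compounds of that flow cell as the reference, WT161 kept ID2 (1.42, adjusted p = 6.996e-05) and NOG (-1.10, adjusted p = 0.0002475), and bromosporin kept ID2 (1.04, adjusted p = 0.001377) and BAMBI (1.96, adjusted p = 5.942e-06). Bromosporin no longer had NOG at 1 in size (-0.60, adjusted p = 0.02505), and trametinib kept GREM1 (-1.12, adjusted p = 1.21e-05). UNC0638 then had SMAD7 called (1.01, adjusted p = 0.006635). LAQ824 shared its flow cell with 2 DMSO libraries, and against those alone its 6 genes gave ID2 1.93, BAMBI 1.61, SMAD6 -1.09, SMAD7 -1.15, ID3 -1.59 and NOG -3.51, each still called.

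The axes were compared as groups, with the 18 compound means as units. None of the 10 genes passed, and neither did any of the 16359 genes (0.0% called), although 5018 had an unadjusted p below 0.05 in the same limma fit. BAMBI came closest, 1.06 ± 0.22 higher in the acetylation axis (adjusted p = 0.0568), followed by NOG, at -1.02 ± 0.33 (adjusted p = 0.06876). The differences were 0.28 (adjusted p = 0.08038) for ID1 and 0.72 (adjusted p = 0.09571) for ID2. On high-dose samples alone BAMBI (1.32, adjusted p = 0.03644) and NOG (-1.29, adjusted p = 0.03957) passed. The 0.0% above is for both doses together, and the share of all genes that passed at the high dose alone is not given here. Within the large flow cell the differences were 0.98 for BAMBI and -0.56 for NOG (adjusted p = 0.2269 and 0.2443).

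Dose was compared within compounds, high minus low. No gene passed in either axis (0.0% of 16359 in both), with 2318 and 1932 genes at an unadjusted limma p below 0.05 in the acetylation and methylation axis. In the acetylation axis the mean step was 0.53 ± 0.64 (SD, n = 7 compounds) for BAMBI, higher at the high dose in 5 of 7, and -0.38 ± 0.55 for NOG, higher at the high dose in 2 of 7. ID2 had a mean step of 0.38 ± 0.57 there and 0.32 ± 0.36 (n = 11) in the methylation axis, where it was higher at the high dose in 10 of 11 compounds (limma adjusted p = 0.3733). The steps of LAQ824 were small for all of these, since its lower dose of 0.5 µM gave values close to those of 5 µM. Between the 2 DMSO concentrations no gene passed (0.0% of 16359, 1548 at an unadjusted limma p below 0.05), although over genes with at least 100 reads the concentrations differed by 3.549 times counting noise.

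The time course of entinostat showed the same genes later in time, with 1 sample per point and so no test. At 1 h none of the 10 genes had moved by 1 or more on the log2 scale (1.24% of all 16359 genes had), and at 6 h none had either (6.08% of all). At 24 h 9 of the 10 had, against 22.4% of all genes, and 8 of the 9 were higher with entinostat. The counting error of the log2 ratio was at most 0.184 for these 9, which says nothing about variation between cultures.

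Among the ID genes, ID1 had 77.9, 124.6 and 377.7 TPM with entinostat at 1, 6 and 24 h, against 89.8, 72.9 and 63.9 TPM in the matching DMSO. ID2 had 13.1, 16.0 and 62.1 TPM against 15.3, 10.3 and 10.3 TPM. ID3 had 476.7, 517.9 and 857.2 TPM against 419.7, 415.8 and 348.7 TPM. All 3 genes were thus highest at 24 h, with log2 differences of 2.54, 2.49 and 1.29 there. ID4 stayed below 1 TPM at every time.

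BAMBI rose from 17.1 TPM at 1 h to 28.3 TPM at 6 h and 128.9 TPM at 24 h with entinostat, and held 14.2 to 16.5 TPM in DMSO. The 24 h difference of 3.10 was the largest among the 10 genes. SMAD6 (14.6 against 2.70 TPM) and SMAD7 (12.1 against 1.78 TPM) were higher at 24 h and not at 6 h, where they had 2.61 against 2.93 TPM and 2.01 against 1.86 TPM. BMP4 was above DMSO at each time, at 29.7, 38.7 and 63.2 TPM against 21.1, 19.5 and 18.4 TPM. GREM1 had 15.1, 13.6 and 42.3 TPM against 13.8, 12.1 and 10.9 TPM. NOG alone was lower, at 22.7, 10.1 and 7.24 TPM against 23.3, 19.9 and 16.4 TPM, with a difference of -0.91 at 6 h and of -1.08 at 24 h, the latter -0.997 after median-ratio scaling. That scaling moved the median difference over all genes from 0.02 to 0.12 at 6 h and from 0.10 to 0.17 at 24 h.

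**Figure D4:**
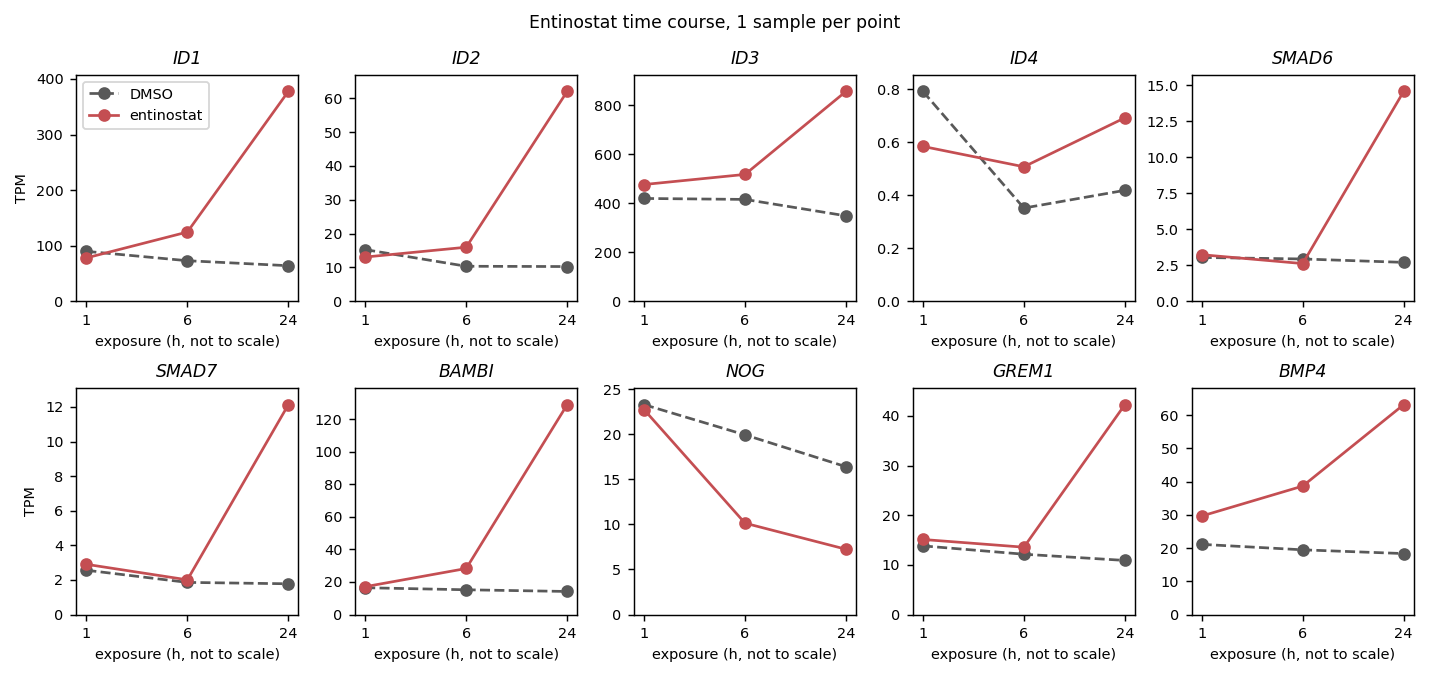
TPM of the 10 genes with entinostat (red, solid) and with DMSO (grey, dashed) after 1, 6 and 24 h, 1 sample per point, each panel with its own axis from 0. At 24 h entinostat exceeds DMSO for every gene except NOG, which lies slightly below it at 1 h (22.7 against 23.3 TPM) and further below at 6 and 24 h.

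N1302 at 6 h moved 4 of the 10 genes by 1 or more on the log2 scale, against 30.9% of all genes, again from 1 sample each. ID1 had 249.4 TPM against 64.2 TPM in its DMSO sample, ID2 65.6 against 16.9 TPM and BAMBI 112.8 against 44.1 TPM. NOG had 1.05 against 12.4 TPM. ID3 was lower, at 168.1 against 274.4 TPM, a log2 difference of -0.70, which became -0.38 with median-ratio scaling, a scaling that moved the median over all genes from -0.11 to 0.03. With the mean of both 6 h DMSO samples of the RH4-titled experiments as the reference, 6 of the 10 genes reached 1 in size. The share of all genes was not counted for this reference, and the 30.9% above is for the N1302 DMSO sample alone. ID3 then had a difference of -1.002, BAMBI 2.07 in place of 1.33 and GREM1 1.62 in place of 0.55. ID1 was at 1.85, ID2 at 2.22 and NOG at -3.03. The ID1 difference of 1.94 with N1302 stood beside 0.13 in the screen for LAQ824, also at 6 h and labelled HDAC, in samples titled RH41 and at other doses, so no test was made between them. ID2 and BAMBI higher and NOG lower, each by 1 or more in size, was seen with N1302 and with entinostat at 24 h. In the screen LAQ824 and bromosporin had this combination, and WT161 had it with BAMBI at 0.99. Entinostat at 6 h had the same directions below 1 in size (0.58, 0.85 and -0.91). SGC-CBP30, MC1568 and trametinib also had these directions, with none of these genes called. ID3, SMAD6 and SMAD7 did not follow one direction: they were lower with LAQ824 at 6 h and higher with entinostat at 24 h, in different experiments, times and doses.

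The partners of ID proteins were set beside them. MYOD1, the myogenic bHLH master factor, had means of 644.0 TPM in both pairs of DMSO libraries, and LAQ824 gave 71.0 and 75.1 TPM (log2 fold change -3.12 ± 0.36, adjusted p = 2.537e-07). MYOG, which acts later in muscle differentiation, went from 575.5 and 581.0 TPM to 49.2 and 51.0 TPM (-3.50, adjusted p = 1.166e-06). WT161 called MYOD1 and MYOG down as well (-1.69 and -2.10, adjusted p = 0.001044 and 0.001235), and so did bromosporin (-1.08 and -1.86, adjusted p = 0.02235 and 0.003189). UNC0638 called MYOD1 alone (-1.18, adjusted p = 0.03594). The E-protein genes TCF12 and TCF3 fell with LAQ824 (-1.95 and -1.07), TCF12 also with bromosporin (-1.17, adjusted p = 0.004578), and TCF4 was called with no compound. MYF5 and MYF6 stayed below 1 TPM in the DMSO and treated samples of the N1302 and entinostat experiments. Of 11 tested genes on the partner list (13 named), 4 were called down and 0 up with LAQ824, 2 down with WT161, 3 down with bromosporin and 1 down with UNC0638, beside 25.3%, 10.3%, 13.0% and 3.31% of all genes called with these compounds in either direction. In the time course MYOD1 was at 112.8 TPM and MYOG at 107.3 TPM with entinostat at 24 h, against 367.3 and 546.4 TPM in DMSO, in the same sample that held the highest ID1 and ID3 values of the series.

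Other genes of the pathway were taken from lists of ligands, receptors, SMADs, antagonists, target transcripts and ID partners, together 93 genes of which 79 were tested. LAQ824 called 7 of the 79 up and 22 down, bromosporin 4 up and 15 down, WT161 7 up and 8 down, and MC1568 8 up and 0 down. Beside the background shares given above, these come to 36.71%, 24.05%, 18.99% and 10.13% of the list. Trametinib called 3 up and 2 down, SGC-CBP30 0 up and 3 down, UNC0638 2 up and 1 down, Cpd50 2 up, GSKLSD1 1 up, and the other 11 compounds none.

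Among 16 tested ligands, LAQ824 called 5 up and 4 down, beside 25.3% of all genes called with it in either direction. BMP8B, a BMP ligand, reached 72.6 and 71.0 TPM with LAQ824, against DMSO means of 4.56 and 4.82 TPM (log2 fold change 3.68 ± 0.38, adjusted p = 4.91e-08). It was also called up with WT161 (2.96) and MC1568 (1.42), as was BMP8A (3.14, 2.06 and 1.23). Reads may be split between BMP8A and BMP8B, which are near-identical copies, so their separate values are uncertain. GDF10 was called down with LAQ824, WT161, bromosporin and SGC-CBP30, by as much as 2.60 with bromosporin (-2.60, adjusted p = 4.79e-05).

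The 15 tested receptors and co-receptors had 4 calls up and 4 down over all 20 compounds. The calls up were 2 with MC1568, 1 with bromosporin and 1 with trametinib, beside 6.73%, 13.0% and 1.16% of all genes called. All 4 calls down came from LAQ824, beside 25.3% of all genes called with it in either direction. Among them were the type II receptor gene ACVR2B (2.22 and 2.00 TPM against 10.9 and 11.5 TPM) and the BMP type I receptor gene BMPR1A (14.05 and 13.2 TPM against 36.8 and 38.5 TPM). The co-receptor gene NEO1 was called up with bromosporin (1.32) and MC1568 (1.09). Of 15 tested SMAD genes and cofactors, 5 were called down with LAQ824, 3 with WT161 and 3 with bromosporin, beside 25.3%, 10.3% and 13.0% of all genes called in either direction, and 0 were called up with any compound. SMAD1, the transducer of the BMP branch, fell from DMSO means of 81.9 and 92.9 TPM to 4.50 and 4.25 TPM with LAQ824 (-4.04 ± 0.43, adjusted p = 8.058e-08). It fell with WT161 to 5.68 and 33.2 TPM and with bromosporin to 11.98 and 33.8 TPM. ZFYVE9, which presents SMADs to the receptor, was called down with the same 3 compounds (-2.70, -1.70 and -1.05), and the corepressor gene TGIF1 with LAQ824 (-3.24) and WT161 (-1.35).

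Among 9 tested extracellular antagonists and modulators, 5 calls were up and 2 down. The calls down were 1 with LAQ824 and 1 with bromosporin, beside 25.3% and 13.0% of all genes called in either direction. Trametinib had 2 of the calls up, beside 1.16% of all genes. MC1568, Cpd50 and GSKLSD1 had 1 each, beside 6.73%, 2.13% and 0.941% of all genes. BMPER fell with LAQ824 (-1.20) and bromosporin (-1.71), CHRD, which encodes the BMP antagonist chordin, was called up with MC1568 (1.67) and GSKLSD1 (1.11), and FSTL3 with Cpd50 (1.66) and trametinib (1.12). Transcripts known to rise with BMP or TGF-beta split in direction, with 10 calls up and 13 down over all compounds. Of the 15 tested, 2 were called up and 4 down with LAQ824, 2 up and 2 down with WT161, and 2 up and 4 down with bromosporin, beside the same 25.3%, 10.3% and 13.0% of all genes. RUNX2 and ATOH8 were called down with LAQ824 (-3.49 and -4.69), WT161 (-2.05 and -2.14) and bromosporin (-1.93 and -2.68). ATOH8 went from DMSO means of 141.6 and 138.5 TPM to 4.49 and 4.47 TPM with LAQ824.

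**Figure D5:**
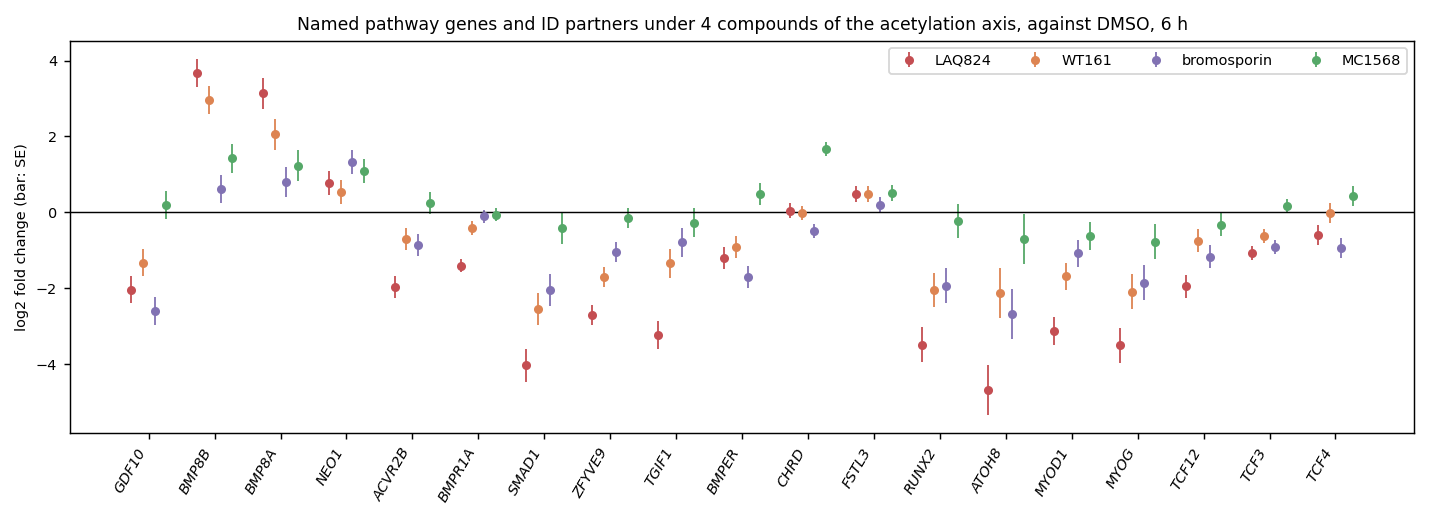
Log2 fold change against DMSO (points) with its SE (bars) for the named ligand, receptor, SMAD, antagonist and target genes and the ID partners, under LAQ824, WT161, bromosporin and MC1568 at 6 h. SMAD1, ZFYVE9, RUNX2, ATOH8, MYOD1 and MYOG lie below 0 in all 4 compounds, and BMP8A and BMP8B lie above it in all 4.

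The genes with the most similar pattern over the 20 compound means were found by Pearson's r among 11121 genes with a mean of at least 5 TPM. All compounds share their DMSO samples and flow cells, so these values are a description. A compound with a large change weighs most in r, such as LAQ824 for ID3 (-1.62) and NOG (-3.47). For ID2 they were ARL6IP6 (r = 0.926), WDR47 (0.923) and DACT3 (0.917). BAMBI was most like OAT (0.94), HEXIM1 (0.933), which encodes an inhibitor of the elongation factor P-TEFb, and RGS2 (0.93). NOG was most like SOX12 (0.946), IRF2BP2 (0.931) and DUSP3 (0.929), and ID3 most like BRD1 (0.944), PRNP (0.943) and MESDC1 (0.922). Lower values were reached for ID1 (RAB33B 0.851, BAHD1 0.85, PRR14 0.839), GREM1 (ELK3 0.853, PID1 0.848, ETV1 0.829), SMAD6 (GRB10 0.847, ARRDC3 0.813, VGLL4 0.793) and BMP4 (MBNL2 0.849, SWAP70 0.785, PXN 0.742). SMAD7 and ID4, with a mean below 5 TPM, were not matched. Among the 45 pairs of the 10 genes, ID2 with BAMBI (r = 0.82) and ID3 with NOG (r = 0.758) were the most alike. Over the 14 compounds of the large flow cell alone these were 0.766 and 0.52.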

How the data were processed

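Poly-A RNA of FP-RMS cells was sequenced by the authors with paired ends, aligned to hg19 with STAR and summarised per gene. The deposited values are TPM, transcript abundances that the authors scaled to gene length and to a common total, 1 table per sample, with no replicates pooled. Samples were grouped from the labels alone. The submitters' processing notes also name edgeR, which was not used here. Values were analysed as log2(TPM + 1), so folds of low genes are understated, for 16359 genes with at least 1 TPM in 2 or more of the 52 samples. Over genes with at least 100 reads the DMSO libraries differed by 4.078 times counting noise between flow cells and by 3.549 times between concentrations, and by 1.018 times once both were taken out. Both libraries of a concentration, 1 per flow cell, were averaged and counted as 1 sample.

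Compounds, axes, doses and solvents were compared with limma 3.58.1 in R 4.3.3 (mean-variance trend, Benjamini-Hochberg adjustment over all genes tested), and adjusted p-values are limma's. The compound fit held 40 treated and 2 DMSO values. The fits were tested on simulated data of 16359 genes. TPM values of all 23645 expressed genes were whole multiples of a common step (tolerance 0.01), which gave reads per sample. Reads describe depth and counting error only. The genes named beyond the 10 are, per list, up to 3 called with most compounds (ties by size), the 7 named ID partners, and the 3 most correlated genes. One gene that this rule names is not reported here. The 10 genes and the lists were chosen with earlier results of these data known. Alternatives were another pseudocount, scaling, filters, references and left-out samples. Python 3.11.15 made the tables.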

Additional observations from a re-analysis of the deposited data

Results flagged for a closer look

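In the 4 screen DMSO libraries SMAD7 had 1 value set apart from the others, 4.391 TPM in the first 0.1% library against 5.57 to 5.74 TPM in the other 3. Chance sets a value apart in about 1 in 20 groups by this measure, and 10 genes were examined. With entinostat, ID1 was lower than DMSO at 1 h (log2 difference -0.202) and higher at 24 h (2.544). Each time point had 1 sample, and the difference between the times was not tested.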

How the results depend on the processing

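All 12 called pairs kept their direction under every alternative run for them, and ID2, ID3, SMAD6, BAMBI and NOG under LAQ824 and GREM1 under trametinib kept their call in all of them. In the acetylation axis 11 calls became 17 with no minimum fold. They became 6, all of LAQ824, when each compound was fitted with DMSO alone, which leaves few residual degrees of freedom. Leaving out single samples gave 7 to 13 calls: without the high-dose samples 7 and without the low-dose samples 13. The methylation axis had 0 calls, and 1 with median-ratio scaling (NOG under Cpd50), 1 against the other compounds of the flow cell (SMAD7 under UNC0638), and 0 to 3 on leaving out single samples. The 3 (ID2, ID4 and SMAD7 under UNC0638) came from its high-dose sample alone, where the lone sample is assumed to vary like the others. Between axes 0 genes passed, but 1 (BAMBI) among genes with a mean of at least 5 TPM, 2 at the high dose only, and 0 to 4 on leaving out 1 compound. No share of all genes is given for these alternatives, so their counts cannot be set against a background. The cause of these shifts was not tested.

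Same-numbered DMSO libraries shared a flow cell, and their deviations had a correlation of 0.072 over genes. For the solvent comparison the replicate block, which removes the flow cell, gave 0 of the 10 genes, as did the fit without it. The fits against the same flow cell's DMSO and within the large flow cell were chosen after seeing the data. Reads limit ID4 most, with as few as 1 read in a sample.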
